A study of Mus musculus with 126 samples.

Results

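The genes described here encode the Polycomb repressive complex PRC2 in mouse embryonic stem cells, and comprise the 8 genes Ezh1, Ezh2, Eed, Suz12, Jarid2, Mtf2, Phf1 and Phf19. They were taken by symbol from a table of RNA-seq read counts with 23420 genes, in which all 8 were present and all 8 passed the filter on low counts that left 15822 genes for testing. Cells of the J1 strain were either wild type (WT) or lacked the 3 DNA methyltransferase genes Dnmt1, Dnmt3a and Dnmt3b (Dnmt1-/-, Dnmt3a-/-, Dnmt3b-/-, triple knockout or TKO). All cells were grown on gelatin in medium with serum and leukaemia inhibitory factor, and were exposed for 36 h either to Trichostatin A (TSA), an inhibitor of histone deacetylases, at a labelled 5 ng/µl or to 0.0033% of its solvent DMSO. This gave 4 groups (WT DMSO, WT TSA, TKO DMSO and TKO TSA) of 2 libraries each. The labels do not say whether the TKO cells are 1 clone, nor that the replicates of a group came from separate cultures, so the p-values measure only the spread between these libraries. The study asks what DNA methylation and histone acetylation each contribute to the binding of transcription factors, and the other 118 of its 126 samples were not analysed here.

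PRC2 places methyl groups on lysine 27 of histone H3, a mark of silent developmental genes. Its core holds a methyltransferase (Ezh2, or the less active Ezh1), the mark reader Eed and the scaffold Suz12, and accessory proteins define 2 forms of it. One form holds a Polycomb-like protein (Mtf2, Phf1 or Phf19), which binds DNA rich in unmethylated CpG, and the other holds Jarid2 with Aebp2. In embryonic stem cells PRC2 occupies CpG islands of developmental regulators, which are repressed there.

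The gene starts themselves are shown first, as sequence only, and neither DNA methylation nor histone acetylation at them was analysed here. RefSeq's promoter table (GRCm38.p6) held 10 windows of 300 bases, from 250 before to 50 after a start, for all 8 genes. Below are the 250 bases before the start of the genes whose RNA level changed most, each read 5′ to 3′ on the gene's strand with every CpG in capitals. Ezh2, Eed and Phf19 were lower with TSA, Suz12 was higher with TSA in wild type cells, and Ezhip, an inhibitor of PRC2 described with the related genes, was far higher in the TKO cells.
Ezh2, chr6:47595031-47595280 (minus strand): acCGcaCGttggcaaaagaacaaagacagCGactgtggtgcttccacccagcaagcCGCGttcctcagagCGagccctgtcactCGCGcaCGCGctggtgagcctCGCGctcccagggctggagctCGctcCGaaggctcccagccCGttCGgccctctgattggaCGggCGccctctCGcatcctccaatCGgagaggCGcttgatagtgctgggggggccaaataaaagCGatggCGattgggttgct
Eed, chr7:89980977-89981226 (minus strand): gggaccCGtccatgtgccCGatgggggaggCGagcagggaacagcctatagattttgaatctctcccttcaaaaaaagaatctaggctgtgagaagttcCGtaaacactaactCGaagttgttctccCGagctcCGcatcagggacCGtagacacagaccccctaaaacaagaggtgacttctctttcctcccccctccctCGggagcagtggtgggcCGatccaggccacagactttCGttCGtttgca
Phf19, chr2:34913977-34914226 (minus strand): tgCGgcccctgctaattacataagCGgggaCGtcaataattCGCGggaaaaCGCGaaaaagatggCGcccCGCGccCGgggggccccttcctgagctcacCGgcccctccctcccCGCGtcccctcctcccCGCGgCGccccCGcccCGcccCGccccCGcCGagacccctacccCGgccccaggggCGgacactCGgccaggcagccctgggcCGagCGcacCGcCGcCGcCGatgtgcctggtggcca
Suz12, chr11:79992856-79993105 (plus strand): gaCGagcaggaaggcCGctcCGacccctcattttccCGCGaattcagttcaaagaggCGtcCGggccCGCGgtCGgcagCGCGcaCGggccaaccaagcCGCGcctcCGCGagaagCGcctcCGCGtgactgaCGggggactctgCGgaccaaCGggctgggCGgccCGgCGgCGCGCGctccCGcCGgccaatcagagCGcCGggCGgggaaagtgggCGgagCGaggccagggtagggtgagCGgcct
Ezhip, chrX:6083421-6083670 (minus strand): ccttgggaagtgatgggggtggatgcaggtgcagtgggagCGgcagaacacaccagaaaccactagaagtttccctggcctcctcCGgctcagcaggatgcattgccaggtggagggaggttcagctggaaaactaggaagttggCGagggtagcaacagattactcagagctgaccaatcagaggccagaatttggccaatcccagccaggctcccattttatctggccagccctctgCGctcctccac
The capitals are dense in Suz12 and Phf19 and sparse in Ezhip. In the whole 300-base window there were 41 CpG in Suz12, 38 in Phf19, 31 in Ezh2 and 17 in Eed, against a median of 7 over 32851 promoters. The Ezhip window held 5 CpG, 0.208 of the number its base composition would give. The other windows held 30 and 2 CpG at the 2 starts of Mtf2, 24 and 23 at the 2 starts of Jarid2, 24 in Phf1 and 23 in Ezh1. Suz12, which rose, and Phf19, which fell, therefore had the most CpG among these windows.

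The windows were searched on both strands for 6 short motifs. The letters TTTCCCGC, bound by E2F factors, stood in the windows of Suz12 and Phf19 and in 1.07% of all promoters. The NRF1 letters GCGCANGCG stood in Ezh1, Ezh2 and Phf1 (6.25% of all promoters), and the YY1 letters AANATGGC in Jarid2 and Phf19 (6.05%). The SP1 letters GGGCGG were found for 5 of the 8 genes (35.7% of all promoters), namely Jarid2, Mtf2, Phf1, Phf19 and Suz12. The GABPA letters CCGGAAG (8.86%) and the MAX letters CACGTG (7.15%) were in none of the 10 windows. These matches describe letters in a window and not binding. The shares over all promoters were not matched for CpG. The windows of Suz12 and Phf19 held 41 and 38 CpG, against a median of 7.

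The 8 libraries held 13280631 to 15542527 counts in genes, so that 3 counts, taken as the limit that a count of 0 allows, correspond to 0.183 to 0.243 normalised CPM (counts scaled to a common library total and by TMM factors, the unit of every level here). These limits cover counting error only. Replicates correlated at 0.991 to 0.994 across genes on the log2 scale, and the spread between replicates was 10.3% of the level (common biological coefficient of variation). The targeted genes were lower in the TKO cells in DMSO, by log2 fold changes of -1.78 for Dnmt1, -3.00 for Dnmt3a and -3.72 for Dnmt3b, and which exons were deleted is not given in the sources used here.

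Levels are given as CPM scaled by TMM factors, and between genes as CPM per kilobase of exon. In wild type cells exposed to DMSO alone (WT DMSO) Eed stood highest at 131 ± 11.5 CPM per kb (SD, n = 2), followed by Mtf2 at 122 ± 32.0, Jarid2 at 72.6 ± 9.86 and Suz12 at 71.7 ± 17.6. Ezh2 followed at 35.0 ± 2.34 and Ezh1 at 11.9 ± 1.70 CPM per kb. Phf19 at 3.00 ± 0.599 and Phf1 at 2.77 ± 0.193 CPM per kb were the lowest. The libraries of Eed and Mtf2 overlapped, as did those of Jarid2 and Suz12 and those of Phf19 and Phf1, so these neighbours in the order do not differ beyond their spread. In WT TSA the order was Mtf2 (126), Suz12 (111), Eed (97.6), Jarid2 (62.5), Ezh2 (25.0), Ezh1 (11.4), Phf1 (3.35) and Phf19 (1.72 CPM per kb), with overlap only between Mtf2 and Suz12. In TKO DMSO it was Eed (127), Mtf2 (118), Suz12 (93.1), Jarid2 (80.9), Ezh2 (40.2), Ezh1 (16.4), Phf19 (6.61) and Phf1 (2.31 CPM per kb), with no overlap between neighbours. In TKO TSA it was Mtf2 (125), Suz12 (113), Eed (84.0), Jarid2 (74.5), Ezh2 (28.3), Ezh1 (13.7), Phf1 (3.18) and Phf19 (2.86 CPM per kb), with overlap between Phf1 and Phf19. With TSA, in both genotypes, Suz12 thus stood above Eed, and Phf19 had the lowest mean.

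**Figure D1:**
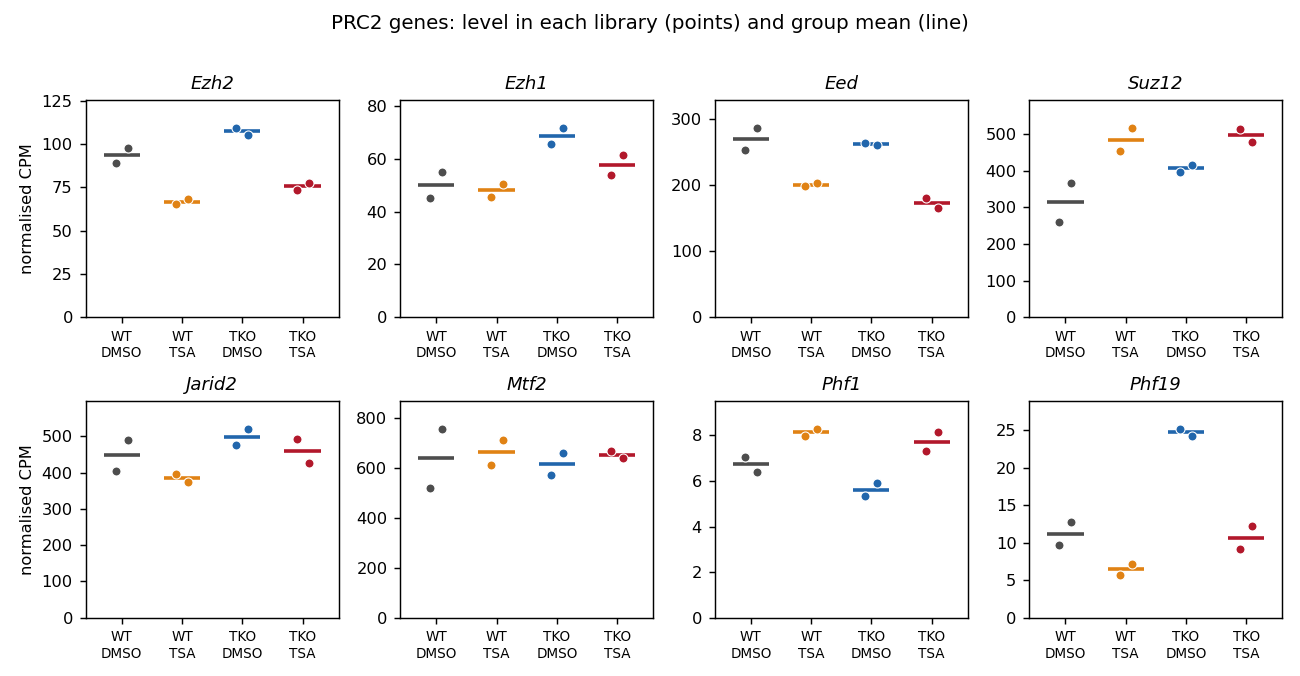
Level of each PRC2 gene in normalised CPM (y axis, from 0, on its own scale per gene) in the 4 groups; points are the 2 libraries of a group and the line is their mean. Phf19 is highest in TKO DMSO (24.3 and 25.2 CPM), and the 2 WT DMSO libraries of Suz12 and Mtf2 lie far apart.

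The first comparison asks what TSA did in wild type cells. Ezh2, Eed and Phf19 fell and Suz12 rose, while Ezh1, Jarid2, Mtf2 and Phf1 did not pass the test (edgeR's quasi-likelihood test, Benjamini-Hochberg adjusted p below 0.05 over all 15822 genes). TSA changed 52.8% of all genes tested, so 4 called of 8 is a share near the background and is not a result about these genes as a set. Their median log2 fold change was -0.14, against 0.01 over all genes. In the TKO cells TSA changed 58.7% of all genes, and 3 of the 8, again Ezh2, Eed and Phf19, fell and none rose. Their median log2 fold change there was -0.18, against 0.04 over all genes.

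The genotype comparisons ask what differs between TKO and wild type cells under the same exposure. In DMSO 20.4% of all genes were called, and 2 of the 8 PRC2 genes, Phf19 and Ezh1, were higher in TKO. Under TSA 18.4% of all genes were called and 1 of the 8, Phf19, was higher in TKO. The median log2 fold change of the 8 was 0.18 in DMSO and 0.11 under TSA, against -0.01 and 0.00 over all genes. The TSA and genotype comparisons share libraries and are not independent. For the difference between the TSA effects of the genotypes (an interaction term), 1.35% of all genes and none of the 8 PRC2 genes were called by edgeR, with adjusted p from 0.472 for Suz12 to 0.981 for Ezh2. All 8 intervals of that difference included 0, and they reached from -1.03 to 0.78 on the log2 scale. None of the 8 had an unadjusted p below 0.05, and DESeq2 called none of them either.

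**Figure D2:**
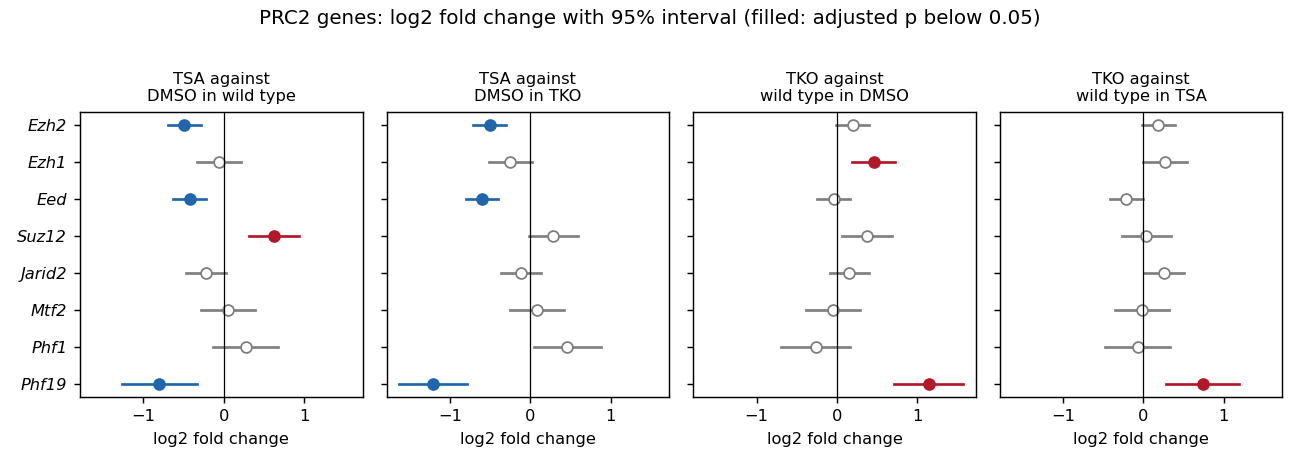
Log2 fold change of each PRC2 gene (x axis) with its 95% interval in the 4 comparisons, from edgeR's fit over 8 libraries; filled points passed an adjusted p of 0.05, red higher and blue lower. Ezh2, Eed and Phf19 lie left of 0 with TSA in both genotypes, and Phf19 lies right of 0 in TKO.

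Ezh2, the main methyltransferase of PRC2 in dividing cells, measured 89.0 and 97.9 CPM in WT DMSO and 65.1 and 68.1 in WT TSA. In TKO cells it measured 109 and 105 CPM in DMSO and 73.4 and 77.7 under TSA. Every TSA library was below every DMSO library, in both genotypes. Groups without overlap were common with TSA, at 77% of all genes in wild type and 82% in TKO, in either direction. TSA lowered Ezh2 by a log2 fold change of -0.49 (SE 0.09, adjusted p = 0.00145) in wild type and of -0.50 (SE 0.09, adjusted p = 0.000862) in TKO cells, a decrease of 1.40-fold and 1.42-fold. Between the genotypes Ezh2 did not pass the test, with log2 differences of 0.20 in DMSO (95% interval -0.01 to 0.40, adjusted p = 0.162) and 0.18 under TSA (-0.02 to 0.39, adjusted p = 0.206). The TKO libraries were nevertheless above the wild type libraries under each exposure, without overlap, as were the groups of 59.8% of all genes in DMSO and 63% under TSA in one direction or the other.

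Ezh1, the second methyltransferase, is known for its role in cells that divide little. It measured 44.9 and 55.0 CPM in WT DMSO, 45.7 and 50.3 in WT TSA, 65.7 and 71.5 in TKO DMSO, and TKO TSA gave 53.9 and 61.4. The TKO DMSO libraries were the highest. In DMSO Ezh1 was higher in TKO by a log2 fold change of 0.46 (SE 0.12, adjusted p = 0.0238), or 1.37-fold. That call was lost without WT DMSO replicate 1 (adjusted p = 0.177), TKO DMSO replicate 1 (0.0649) or TKO DMSO replicate 2 (0.161). The other log2 differences of Ezh1 did not pass: -0.06 with TSA in wild type, -0.25 with TSA in TKO and 0.26 for TKO under TSA, and the first was above 0 with other scalings (0.09 by upper quartile and 0.15 by total counts). With TSA in TKO Ezh1 passed in 3 of 16 alternatives (adjusted p from 0.0303 to 0.505 over the 16).

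The proportion of the methyltransferase genes was read in each library. Per kilobase, Ezh1 made up 24.3% and 26.3% of the sum of Ezh1 and Ezh2 in WT DMSO, and 30.9% and 32.0% in WT TSA. In the TKO cells its share was 27.7% and 30.1% in DMSO and 31.8% and 33.4% under TSA. The TSA libraries had the higher share in both genotypes, without overlap. These shares are given as a description and were not tested. The sum of both genes was 44.1 and 49.8 CPM per kb in WT DMSO, 35.3 and 37.5 in WT TSA, 56.5 and 56.6 in TKO DMSO, and TKO TSA gave 40.4 and 43.8, lower under TSA in both genotypes.

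Eed, the subunit that binds the methylated histone tail, measured 253 and 286 CPM in WT DMSO and 199 and 203 in WT TSA. In TKO cells it measured 264 and 262 CPM in DMSO and 181 and 165 under TSA. Again every TSA library was below every DMSO library. With TSA 77% of all genes in wild type and 82% in TKO had no overlap either, in one direction or the other. The log2 fold change with TSA was -0.42 (SE 0.09, adjusted p = 0.00307) in wild type and -0.60 (SE 0.09, adjusted p = 0.000267) in TKO cells, a decrease of 1.34-fold and 1.52-fold. Scaled by total counts alone, the value in wild type was -0.22 with adjusted p = 0.0541. Between the genotypes Eed did not pass, with log2 differences of -0.04 in DMSO (95% interval -0.24 to 0.17) and -0.22 under TSA (-0.42 to -0.01, adjusted p = 0.133).

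Suz12, the scaffold on which both forms of the complex assemble, went the other way. It measured 259 and 368 CPM in WT DMSO and 454 and 516 in WT TSA. In TKO cells it measured 397 and 417 CPM in DMSO and 514 and 479 under TSA. The lowest library was WT DMSO replicate 1, and the ratio between the 2 WT DMSO libraries was 1.42, against 1.05 to 1.14 in the other groups. TSA raised Suz12 in wild type by a log2 fold change of 0.63 (SE 0.14, adjusted p = 0.00338), or 1.55-fold, and this was called under every alternative (0.40 to 0.90). In TKO cells the TSA libraries were also above the DMSO libraries, where 82% of all genes had no overlap in either direction. The log2 difference of 0.29 there (95% interval -0.02 to 0.59) did not pass (adjusted p = 0.0987). It passed in 5 of the 16 alternatives, with adjusted p from 0.0129 to 0.294, among them without WT DMSO replicate 1 (0.0129) or replicate 2 (0.0169). The difference between these TSA effects was itself not called (log2 -0.34, 95% interval -0.78 to 0.09, adjusted p = 0.472). Suz12 in TKO against wild type in DMSO missed the threshold at 0.38 (adjusted p = 0.0822) and passed it in 4 of 16 alternatives, among them without WT DMSO replicate 2 (0.65, adjusted p = 0.00308). Under TSA the genotypes overlapped (log2 0.03, 95% interval -0.27 to 0.34).

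Jarid2, a DNA-binding cofactor that helps bring the complex to its targets, measured 404 and 490 CPM in WT DMSO, 395 and 375 in WT TSA, 476 and 521 in TKO DMSO, and TKO TSA gave 493 and 425. None of its comparisons was called. The groups did not overlap with TSA in wild type (log2 -0.22, 95% interval -0.46 to 0.03, adjusted p = 0.125), as they did not for 77% of all genes. Without WT DMSO replicate 1 that difference passed (adjusted p = 0.0296). In TKO cells the log2 difference with TSA was -0.12 (-0.37 to 0.13), and it was 0.03 with scaling by total counts. Between the genotypes it was 0.16 in DMSO (-0.09 to 0.40) and 0.25 under TSA (0.01 to 0.50, adjusted p = 0.142).

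Mtf2, the main Polycomb-like protein of embryonic stem cells, measured 519 and 756 CPM in WT DMSO, the widest pair of all 8 genes with a ratio of 1.46. The other libraries lay within that pair, at 612 and 711 in WT TSA, 572 and 659 in TKO DMSO, and TKO TSA gave 667 and 638. All 4 log2 differences lay between -0.05 and 0.08, with adjusted p from 0.655 to 0.942. The intervals reached from -0.39 to 0.42, so changes within these limits are not excluded. Without WT DMSO replicate 2 the difference with TSA in wild type was 0.35 (adjusted p = 0.0415).

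Phf1, a Polycomb-like protein with little RNA in these cells, measured 7.06 and 6.40 CPM in WT DMSO, 8.00 and 8.29 in WT TSA, 5.33 and 5.89 in TKO DMSO, and TKO TSA gave 7.30 and 8.16. The TSA libraries were above the DMSO libraries in both genotypes, without overlap. With TSA 77% of all genes in wild type and 82% in TKO also had no overlap, in either direction. The log2 differences with TSA did not pass the test, at 0.27 in wild type (95% interval -0.14 to 0.68, adjusted p = 0.239) and 0.46 in TKO cells (0.05 to 0.88, adjusted p = 0.0543). The latter passed in 4 of 16 alternatives, with adjusted p from 0.0192 to 0.222 over the 16, and 0.0489 without WT DMSO replicate 1. Between the genotypes they were -0.26 in DMSO (adjusted p = 0.376) and -0.07 under TSA (adjusted p = 0.815).

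Phf19, the third Polycomb-like protein, varied most of the 8 genes. It measured 9.63 and 12.8 CPM in WT DMSO and 5.74 and 7.13 in WT TSA. In TKO cells it measured 25.2 and 24.3 CPM in DMSO and 9.20 and 12.2 under TSA. The TKO DMSO libraries stood far above the rest, and the TKO TSA libraries lay at the level of WT DMSO. In DMSO it was higher in TKO by a log2 fold change of 1.14 (SE 0.19, adjusted p = 0.00217), or 2.21-fold, which placed it at the 94.3 percentile of the log2 fold changes of all genes. That call held under all 16 alternatives (0.93 to 1.36). TSA lowered Phf19 in TKO cells by 2.31-fold (log2 -1.21, SE 0.19, adjusted p = 0.000321), which also held under all 16 (-1.43 to -1.02).

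In wild type cells TSA lowered Phf19 by 1.74-fold (log2 -0.80, SE 0.21, adjusted p = 0.00835). Without WT DMSO replicate 2 (adjusted p = 0.0630) or WT TSA replicate 1 (0.0642) that difference missed the threshold. Under TSA Phf19 was higher in TKO by 1.67-fold (log2 0.74, SE 0.21, adjusted p = 0.0314). This call was lost without WT TSA replicate 1 (adjusted p = 0.225), TKO DMSO replicate 1 (0.0537), TKO DMSO replicate 2 (0.0531) or TKO TSA replicate 2 (0.229), and when only the 4 TSA libraries were fitted (0.0505). The difference between the TSA effects was -0.41 (95% interval -1.03 to 0.22) and not called (adjusted p = 0.57).

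Among the 3 Polycomb-like genes Mtf2 made up 92.5% to 96.2% of the summed level per kilobase in every library. Phf19 made up 2.46% and 2.27% in WT DMSO, 1.26% and 1.35% in WT TSA, 5.68% and 4.81% in TKO DMSO, and TKO TSA gave 1.85% and 2.53%. Its share was highest in TKO DMSO, without overlap with any other group, and TSA libraries were below DMSO libraries in TKO and in wild type. These shares were not tested either.

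**Figure D3:**
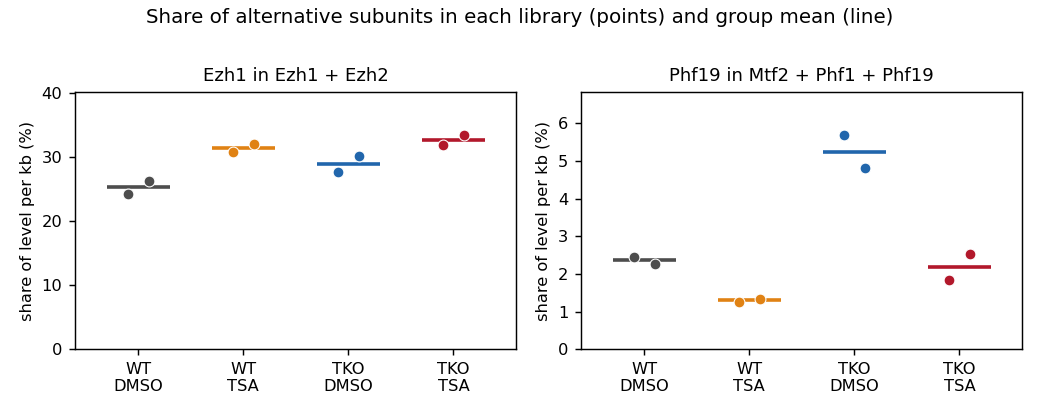
Share of Ezh1 in the sum of Ezh1 and Ezh2 (left) and of Phf19 in the sum of Mtf2, Phf1 and Phf19 (right), in percent of the level per kilobase; points are the 2 libraries of a group and the line is their mean. The Ezh1 share is higher under TSA (30.9% to 33.4%) than in DMSO (24.3% to 30.1%), and the Phf19 share is highest in TKO DMSO.

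Scaling touched the TSA comparisons. The median log2 fold change of all genes moved from 0.01 to 0.16 (upper quartile) and 0.22 (total counts) in wild type, and from 0.04 to 0.11 and 0.19 in TKO. The share of calls that were higher moved from 51.0% to 65.8% and 70.4% in wild type, from 52.5% to 58.5% and 64.4% in TKO, and from 65.3% to 53.0% and 55.8% for the interaction. Ezh2, Phf19 and Suz12 kept their calls with TSA under each scaling where they had one. The size of the Ezh2 change varied over all 16 alternatives, from -0.55 to -0.28 in wild type and from -0.56 to -0.36 in TKO. The TMM factors were 0.9295 to 0.955 in the DMSO libraries and 1.038 to 1.083 in the TSA libraries.

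A list of 7 other genes of the complex gave a mixed picture. The chaperones of histones Rbbp4 and Rbbp7 are core partners, and Aebp2 belongs to the form with Jarid2. Epop and certain products of the Lcor and Lcorl genes join the Polycomb-like form. Counts per gene do not tell apart the products of a gene. Ezhip blocks the enzyme and is best known from germ cells and from certain brain tumours. With TSA in wild type 2 of the 7 rose (Rbbp7 and Ezhip) and 4 fell (Rbbp4, Aebp2, Epop and Lcorl), beside 52.8% of all genes called. In TKO cells 1 rose (Rbbp7) and the same 4 fell, beside 58.7% of all genes called. Between the genotypes, in DMSO and under TSA alike, Ezhip was higher and Rbbp7 lower in TKO, and the other 5 did not pass. Of all genes 20.4% were called between the genotypes in DMSO and 18.4% under TSA.

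Ezhip (listed under its older symbol AU022751, a gene of 1 exon at chrX:6081218-6083420 on the minus strand, mm10) measured 3.42 and 3.81 CPM in WT DMSO and 11.7 and 13.7 in WT TSA. In TKO cells it measured 45.5 and 42.8 CPM in DMSO and 53.1 and 48.3 under TSA. All 4 TKO libraries were above all wild type libraries, and the 4 groups did not overlap. Pairs of groups without overlap were common, at 59.8% to 82% of all genes by comparison. In DMSO Ezhip was 12.2-fold higher in TKO (log2 3.61, SE 0.16, adjusted p = 7.27e-07), and under TSA 4.00-fold (log2 2.00, SE 0.13, adjusted p = 6.11e-06). TSA raised it 3.51-fold in wild type (log2 1.81, SE 0.17, adjusted p = 2.29e-05), whereas in TKO cells the log2 difference of 0.20 (95% interval -0.07 to 0.47) did not pass (adjusted p = 0.182), except with scaling by total counts (0.35, adjusted p = 0.0306). The interaction term (TKO effect of TSA less the wild type one) was -1.61 (SE 0.21, adjusted p = 0.00639), a call that was lost without TKO DMSO replicate 2 (adjusted p = 0.0590).

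Rbbp7 measured 387 and 386 CPM in WT DMSO, 569 and 678 in WT TSA, 273 and 275 in TKO DMSO, and TKO TSA gave 375 and 443. It rose with TSA by 1.61-fold in wild type (log2 0.69, adjusted p = 0.000425) and by 1.49-fold in TKO cells (log2 0.58, adjusted p = 0.000933). In TKO it was lower by a log2 fold change of -0.50 in DMSO (adjusted p = 0.00834) and of -0.61 under TSA (adjusted p = 0.00343). The DMSO call was lost without TKO DMSO replicate 1 (adjusted p = 0.0622) or replicate 2 (0.0658). Exon bases shared with the opposite-strand gene Txlng make up 7.57% of Rbbp7, and reads there cannot be assigned because the strand setting of the counting is not given in the sources used here.

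Its homologue Rbbp4 measured 476 and 490 CPM in WT DMSO, 356 and 337 in WT TSA, 457 and 432 in TKO DMSO, and TKO TSA gave 350 and 310. It fell with TSA by log2 fold changes of -0.48 in wild type (adjusted p = 0.00128) and -0.43 in TKO cells (adjusted p = 0.00197). An opposite-strand gene, Sync, covers 11.8% of its exon bases. Lcorl fell by -0.79 and -0.63 (adjusted p = 0.00497 and 0.0130), with 7.71% of its exon bases shared with Ncapg. Aebp2 fell by -0.53 and -0.43 (adjusted p = 0.0116 and 0.0253), and Epop by -0.29 and -0.34 (adjusted p = 0.0295 and 0.0114). In wild type, Aebp2 missed the threshold without WT DMSO replicate 2 (0.108) or WT TSA replicate 1 (0.0771), and Epop without WT DMSO replicate 2 (0.0943) or WT TSA replicate 2 (0.198). In TKO cells Aebp2 missed it without TKO DMSO replicate 2 (0.192), TKO TSA replicate 1 (0.0922) or replicate 2 (0.0681). Epop missed it there without TKO DMSO replicate 2 (0.114) or TKO TSA replicate 1 (0.0825), and Lcorl without TKO DMSO replicate 1 (0.0793) or TKO TSA replicate 2 (0.102). Scaled by upper quartile, Aebp2 missed it in wild type (0.0610) and TKO (0.0683), and Epop in wild type (0.269). Scaled by total counts, Aebp2 (0.0906 and 0.119) and Epop (0.495 and 0.113) missed it in both genotypes.

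Genes that remove or oppose the mark were read from 2 further lists. Of the H3K27 demethylases, Kdm6a fell with TSA from 170 and 173 CPM to 99.7 and 91.3 in wild type (log2 -0.85, SE 0.09, adjusted p = 5.99e-05). In TKO cells it fell from 156 and 152 CPM to 87.8 and 77.8 (log2 -0.90, SE 0.10, adjusted p = 2.26e-05). Kdm6b, near 8 CPM in most libraries (5.68 to 9.48), did not pass in any comparison. Of 5 methyltransferases that place marks opposed to PRC2, Nsd1, a writer of H3K36 methylation, fell from 792 and 762 CPM to 310 and 258 in wild type (log2 -1.45, SE 0.11, adjusted p = 1.18e-05). In TKO cells Nsd1 fell from 877 and 768 CPM to 324 and 284 (log2 -1.44, SE 0.11, adjusted p = 4.57e-06). Its relative Nsd2 rose with TSA in both genotypes (log2 0.49, adjusted p = 0.00121, and 0.41, adjusted p = 0.00292). Nsd3 passed in wild type (0.25, adjusted p = 0.0468) and Setd2 in TKO cells (0.27, adjusted p = 0.0142), and Ash1l passed in neither. The call of Nsd3 was lost when any 1 of the 8 libraries was left out (adjusted p from 0.0622 to 0.155). It was also lost with no filter (0.0973), by DESeq2 (0.0918), with a gene length offset (0.115) and with only the groups compared (0.0915). That of Setd2 was lost without TKO DMSO replicate 2 (0.0988) or TKO TSA replicate 1 (0.0565), and with the length offset (log2 0.14, adjusted p = 0.171). None of these 7 genes was called between the genotypes, beside 20.4% of all genes in DMSO and 18.4% under TSA.

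**Figure D4:**
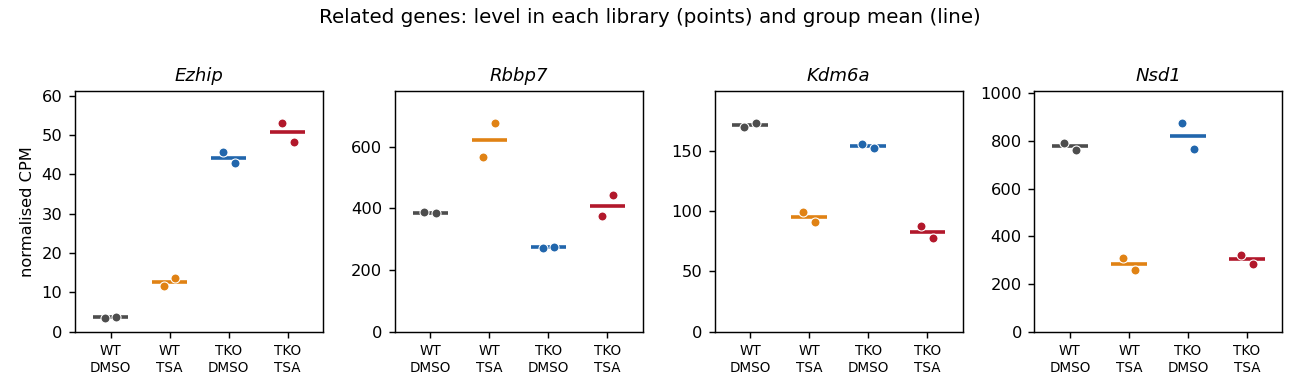
Level in normalised CPM (y axis, from 0, on its own scale per gene) of the PRC2 inhibitor Ezhip, the partner Rbbp7, the demethylase Kdm6a and the H3K36 methyltransferase Nsd1; points are the 2 libraries of a group and the line is their mean. Ezhip is high in TKO (42.8 to 53.1 CPM) and low in WT DMSO (3.42 and 3.81), while Kdm6a and Nsd1 are lower under TSA in both genotypes.

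Developmental genes widely described as PRC2 targets were read from a list of 24. Of these, 16 passed the filter on low counts, and the other 8 (Pax7, Lbx1, Nkx2-2, Olig2, Neurog1, Hoxa11, Hoxd10 and Wnt1) never exceeded 10 counts in a library. With TSA 8 of the 16 rose in wild type (Sox17, Hand1, Cdx2, Pax3, Neurog2, Msx1, Tbx2 and Cdkn2a) and Pax6 fell. There 27% of all genes were called higher, and 52.8% in either direction. In TKO cells the same 8 and Eomes rose, and Pax6 fell, beside 30.8% of all genes called higher and 58.7% in either direction. Since a gene can pass the filter through the group where it is high, these counts describe the tested genes only.

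Hand1, a regulator of trophoblast and heart, measured 0.999 and 0.729 CPM in WT DMSO and 16.3 and 24.2 in WT TSA, and 1.16 and 1.46 in TKO DMSO, and TKO TSA gave 24.9 and 34.8. Its log2 fold change was 4.52 (SE 0.32, adjusted p = 7.97e-06) in wild type and 4.51 (SE 0.29, adjusted p = 1.89e-06) in TKO cells. Msx1, a homeobox gene of neural crest and limb, rose by log2 fold changes of 3.34 and 3.65 (adjusted p = 9.41e-05 and 6.62e-05). Cdx2, a trophoblast and gut regulator, rose by 3.16 and 3.59 (adjusted p = 9.05e-05 and 0.000221). Without WT DMSO replicate 1 the wild type values were 4.21 for Msx1 and 4.25 for Cdx2, and over all libraries left out they ranged from 2.85 to 4.21 and from 2.59 to 4.25. Pax6, a neural regulator, fell from 22.4 and 14.6 CPM to 2.50 and 1.77 in wild type (log2 -3.11, SE 0.39, adjusted p = 0.000107). Its fall in TKO cells was -2.38 on the log2 scale (adjusted p = 0.000171), which was -3.18 without TKO TSA replicate 1. Pax3, with 0 counts in both TKO DMSO libraries, was at least 3.18-fold higher in TKO TSA, taking 3 counts per library as the floor. In DMSO Gata4, Gata6 and Sox17 were higher and Eomes and Cdx2 lower in TKO, beside 20.4% of all genes called. Gata4 stood at 0.85 (adjusted p = 0.0229), Gata6 at 2.39 (adjusted p = 0.00171), Sox17 at 2.77 (adjusted p = 0.000871), Eomes at -1.59 (adjusted p = 0.00149) and Cdx2 at -2.37 (adjusted p = 0.0195) on the log2 scale. The DMSO calls of Gata4 and Cdx2 were lost without WT DMSO replicate 1 (0.163 and 0.237), TKO DMSO replicate 1 (0.0692 and 0.125) or TKO DMSO replicate 2 (0.126 and 0.0900). DESeq2 did not call Gata4 there (0.0628). The call of Tbx2 with TSA in wild type was lost without WT DMSO replicate 1 (0.0791) and by DESeq2 (0.0835). Under TSA Gata6 (1.56, adjusted p = 0.0138), Sox17 (2.06, adjusted p = 0.000496) and Eomes (1.20, adjusted p = 0.00418) were higher and Cdx2 (-1.94, adjusted p = 0.00327) lower in TKO, beside 18.4% of all genes called. Gata6 missed the threshold there without WT TSA replicate 1 (0.108) or TKO TSA replicate 2 (0.112).

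**Figure D5:**
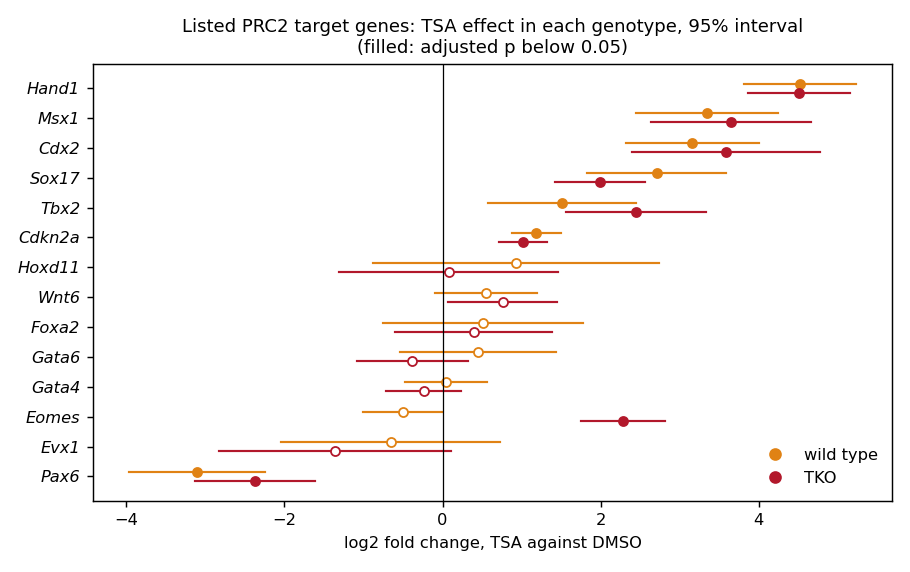
Log2 fold change with TSA (x axis) and its 95% interval for listed PRC2 target genes in wild type (orange) and TKO cells (red); filled points passed an adjusted p of 0.05. Pax3 and Neurog2 are left out because a DMSO group had at most 3 counts per library. Hand1, Msx1 and Cdx2 lie farthest right in both genotypes, with intervals above 2, and Pax6 lies below 0, while Eomes lies apart between the genotypes.

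Genes of other programmes moved with the groups as well. Of 12 proliferation genes 11 fell with TSA in each genotype (all but Ccna2), where 25.9% (wild type) and 27.9% (TKO) of all genes fell. Their median log2 fold changes were -0.53 and -0.63. In wild type cells the replication licensing genes Mcm2 (-0.84), Mcm5 (-0.77) and Mcm3 (-0.72) and the topoisomerase Top2a (-0.64) fell most, and in TKO cells Mcm2 (-1.05), Mcm3 (-0.86), Mcm4 (-0.81) and Mcm5 (-0.76) did. With scaling by total counts Cdk1 (adjusted p = 0.0763) and Mki67 (0.115) missed the threshold in wild type and Mki67 (0.390) in TKO. Mki67 in TKO also missed it when any library other than the 2 of WT DMSO was left out (0.0569 to 0.195). The summed level of the 12 was 7051 to 7515 CPM in WT DMSO, 4801 to 4931 in WT TSA, 7747 to 7792 in TKO DMSO and 5075 to 5155 in TKO with TSA. None of the 12 passed between the genotypes, beside 20.4% of all genes called in DMSO and 18.4% under TSA. Within each genotype Ezh2, Eed and this sum were all lower under TSA than in DMSO. Ezh2 and the sum were lowest in WT TSA, whereas Eed was lowest in TKO TSA (mean 173 CPM, against 201 in WT TSA).

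Of 8 embryonic stem cell markers 7 fell with TSA in each genotype, beside the same 25.9% and 27.9% of all genes. Fgf4 (-2.75), Esrrb (-1.49), Pou5f1 (-1.16) and Zfp42 (-0.94) fell most in wild type, and Tdgf1 (-2.48), Fgf4 (-2.30), Esrrb (-1.62) and Pou5f1 (-1.43) in TKO cells. In wild type Nanog missed the threshold without WT DMSO replicate 2 (0.0702) or WT TSA replicate 1 (0.0600). In TKO cells Sox2 missed it without TKO DMSO replicate 1 (0.0564), TKO DMSO replicate 2 (0.0683) or TKO TSA replicate 2 (0.138). In DMSO 5 of the 8 were higher in TKO (Klf4 0.79, Nanog 0.74, Esrrb 0.66, Zfp42 0.66 and Fgf4 0.60), where 9.62% of all genes were higher. All of these but Nanog missed the threshold without WT DMSO replicate 1 (0.0631 to 0.253) or TKO DMSO replicate 2 (0.0978 to 0.286). Under TSA 4 were higher in TKO (Fgf4 1.05, Nanog 0.89, Klf4 0.61 and Esrrb 0.53) and Tdgf1 was lower (-1.62), beside 18.4% of all genes called. Esrrb missed the threshold there without WT TSA replicate 2 (0.202) or TKO TSA replicate 1 (0.197). Klf4 missed it without WT DMSO replicate 1 (0.0516), WT TSA replicate 1 (0.308), TKO DMSO replicate 1 (0.0673), TKO DMSO replicate 2 (0.0683) or TKO TSA replicate 2 (0.368). Scaled by upper quartile, Nanog with TSA in wild type (0.0939) and Esrrb (0.051) and Klf4 (0.0684) between the genotypes under TSA missed the threshold. Scaled by total counts, Nanog (0.163) and Klf4 (0.0672) in these comparisons and Sox2 with TSA in TKO (0.0694) missed it. Klf4 between the genotypes under TSA also missed it with only the groups compared (0.0828). The summed level of the 8 was 3135 to 3611 CPM in WT DMSO, 1670 to 1863 in WT TSA, 4107 to 4497 in TKO DMSO and 1627 to 1977 in TKO with TSA.

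The 6 primitive endoderm markers summed to 105 to 113 CPM in WT DMSO, 84.7 to 97.6 in WT TSA, 356 to 378 in TKO DMSO and 289 to 305 in TKO with TSA. Most of that sum was Lama1, a laminin chain, with 92.2 and 99.6 CPM in WT DMSO and 333 and 352 in TKO DMSO. In DMSO 4 of the 6 were higher in TKO (Gata4, Gata6, Sox17 and Lama1), where 9.62% of all genes were higher, and all but Lama1 are also on the list of targets, where the DMSO call of Gata4 was lost as given above. With TSA the sum was lower through Lama1 (log2 -0.38 in each genotype) while Sox17 rose (2.71 in wild type and 2.00 in TKO). The Lama1 call in wild type was lost without WT TSA replicate 1 (0.0877) and scaled by upper quartile (0.0817) or total counts (0.163), and that in TKO scaled by total counts (0.0603).

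Fibroblast markers, of which 6 of 7 were tested, summed to 37.9 to 44.5 CPM in WT DMSO, 79.5 to 94.8 in WT TSA, 10.6 to 10.9 in TKO DMSO and 35.2 to 52.4 in TKO with TSA. With TSA 4 of the 6 rose (Lum, Thy1, Pdgfrb and Col1a2) and Col3a1 fell in wild type, beside 27% of all genes called higher and 52.8% in either direction. In TKO all 6 rose, beside 30.8% of all genes called higher and 58.7% in either direction. Between the genotypes 3 were lower in TKO in DMSO (Col1a1, Col1a2 and Col3a1), where 10.7% of all genes were lower. Under TSA 3 were lower (Col1a1, Col1a2 and Pdgfrb), where 8.38% of all genes were lower. Under TSA the call of Col1a1 was lost without WT TSA replicate 2 (0.108) or TKO TSA replicate 1 (0.0894), and that of Pdgfrb without WT TSA replicate 1 (0.0641) or TKO TSA replicate 1 (0.0691). Lum had 0 counts in 1 library of WT DMSO and 1 of TKO DMSO. Dcn, the marker not tested, was lower with TSA, at 10 and 6 counts in WT DMSO and 1 and 2 in WT TSA. In TKO cells Dcn had 19 and 4 counts in DMSO and 0 in both TSA libraries. As with the targets, a gene can pass the filter through the group where it is high. The numbers of markers called therefore describe the tested genes only. The part of proliferation and of these marker lists in the levels of the PRC2 genes was not tested, and in bulk samples fewer cells of a type and less RNA per cell cannot be told apart.

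The genes whose pattern over the 8 libraries was most like that of each PRC2 gene were taken from those with a mean of at least 10 CPM, by Pearson's r of log2 CPM. The 8 values share 4 groups, so r largely reads the group means and is given as a description. For Ezh2 they were Hhip (r = 0.994), a Hedgehog-binding protein, and Birc5 (0.991), which encodes survivin, a protein of mitosis. Eed was matched by Aasdhppt (0.996) and Fignl1 (0.993), and Suz12 by Tpd52 (0.988) and Fam45a (0.983). Phf19 was matched by Cpt1a (0.985), the carnitine transferase of fatty acid oxidation, and Ryr3 (0.983), a calcium channel. Ezh1 was matched by Adck3 (0.986) and Psmd5 (0.979), and Phf1 by Nuak1 (0.992) and Adamts7 (0.991). The values were lower for Jarid2, with B3gnt2 (0.971) and Six4 (0.964), and lowest for Mtf2, with Dus4l (0.942) and Zfp449 (0.923).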

How the data were processed

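RNA-seq was measured in 8 libraries, in 4 groups of 2 taken from the labels. Per the labels' protocols, total RNA was DNase-treated, depleted of ribosomal RNA, made into strand-directional libraries and read in pairs. The authors deposited raw read counts per gene with exon positions and lengths. Per the submitters' processing notes, TopHat2 2.0.13, featureCounts 1.4.5-p1, edgeR 3.22.3 and the mm10 build were used; annotation, strand setting and multi-mapping reads are not given in the sources used here.

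From the deposited counts, edgeR 4.0.16 (R 4.3.3) fitted 1 quasi-likelihood model with a mean per group to all 8 libraries, after filterByExpr and TMM scaling. Genes were called at a Benjamini-Hochberg adjusted p below 0.05 over 15822 genes, two-sided. Levels between genes were divided by the deposited exon length. Standard errors were derived from the fold change and its F statistic. The fit was tested on simulated counts. DESeq2 1.42.0, other scalings, no filter, a length offset, a replicate block, only the groups compared and leaving out each library were alternatives. The members and lists were chosen with earlier results of these data known. All 8 PRC2 genes were named, up to 4 called genes of largest change per related or marker list and comparison (mean of at least 1 CPM in a group), every called gene where 5 or fewer were counted, other listed genes where 1 library or setting ended a call, and the 2 genes most like each member. None of the exons of the 8 PRC2 genes overlapped another gene. Replicates differed by more than sampling noise in every group (chi-square per degree of freedom 4.54 to 10.3).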

Additional observations from a re-analysis of the deposited data

Results flagged for a closer look

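The TSA effects of the genotypes differed by the interaction test of edgeR for 2 genes among the PRC2 partners and targets and for 4 other listed genes. Over all genes 1.35% were called by that test. For Ezhip, the inhibitor of PRC2, the effect in TKO cells minus that in wild type cells was -1.61 on the log2 scale (adjusted p = 0.00639). Its 4 TKO libraries were between 42.8 and 53.1 CPM with or without TSA, while wild type cells went from 3.42 and 3.81 CPM to 11.7 and 13.7. For Eomes, a regulator of trophoblast and mesendoderm in the list of PRC2 targets, the difference was 2.79 (SE 0.34, adjusted p = 0.00533). Eomes measured 9.35 and 6.32 CPM in WT DMSO, 6.04 and 5.03 in WT TSA, 2.39 and 2.84 in TKO DMSO, and TKO TSA gave 12.4 and 13.1. Without TKO DMSO replicate 2 both missed the threshold (adjusted p = 0.0590 for Ezhip and 0.0539 for Eomes). The difference was 1.33 for the targeted gene Dnmt3b (adjusted p = 0.00521; 0.0590 without TKO DMSO replicate 2), -1.63 for the stem cell marker Tdgf1 (adjusted p = 0.0275) and 3.05 for the fibroblast marker Col1a1 (adjusted p = 0.0287). Tdgf1 missed the threshold without WT DMSO replicate 1 (0.0783), WT TSA replicate 1 (0.0608), TKO DMSO replicate 1 (0.0891) or TKO DMSO replicate 2 (0.147). Col1a1 missed it without WT DMSO replicate 1 (0.0659), WT TSA replicate 1 (0.0630), TKO DMSO replicate 1 (0.112), TKO DMSO replicate 2 (0.169) or TKO TSA replicate 2 (0.0517). Col3a1 was also called (adjusted p = 0.0438) but had 1 count in each TKO DMSO library, so no size is given.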

How the results depend on the processing

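With 2 libraries a group, leaving out 1 decided many calls near the threshold. For the 8 PRC2 genes and Ezhip, Ezh2 and Eed with TSA in TKO, Ezh2 and Suz12 with TSA in wild type, Phf19 with TSA in TKO and between genotypes in DMSO, and Ezhip in its 3 called pairwise comparisons were called under every alternative. For the other listed genes, 121 called results gave 1932 values under the alternatives, of which 116 were no longer called and 0 were reversed. Pax3, Neurog2, Col3a1 and Lum were left out of this tally because a group of each had at most 3 counts per library.

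PRC2 genes called with TSA in TKO numbered 5 with total counts, 5 with only the groups compared and 6 with the replicate block, against 3; without single libraries they ranged from 3 to 5. PRC2 genes called in TKO against wild type ranged from 1 to 3 in DMSO and from 0 to 1 under TSA, and were 0 under TSA with only the groups compared. Genes called ranged from 1435 to 3328 (genotype in DMSO), 930 to 3399 (genotype under TSA) and 9 to 392 (interaction, against 213). The genotype count in DMSO fell by over 1.5 times without WT DMSO replicate 1 (1706), TKO DMSO replicate 1 (1800) or replicate 2 (1435), that under TSA without WT TSA replicate 1 (930) or TKO TSA replicate 2 (1351), and that of the interaction moved by over 1.5 times without any library but TKO TSA replicate 1. The interaction called 488 genes without a filter, 401 by DESeq2 and 633 with the replicate block. With that block the genes called with TSA rose from 8358 to 9256 in wild type and from 9284 to 10039 in TKO. Those called between the genotypes rose from 3220 to 4217 in DMSO and from 2910 to 4097 under TSA. The replicate numbers do not pair the libraries by the labels, and the deviations of same-numbered libraries correlated at 0.0586 to 0.366; the block changed the calls in TKO with TSA for Ezh1, Suz12 and Phf1 (adjusted p = 0.0303, 0.0461 and 0.0414) and in the genotype comparison in DMSO for Suz12 (0.0292), and no other call of the PRC2 genes.

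Without division by length the Ezh1 share was 34.8%, 41.9%, 39.0% and 43.2% and the Phf19 share 1.72%, 0.949%, 3.85% and 1.60% in WT DMSO, WT TSA, TKO DMSO and TKO TSA. By library, the shares ranged as printed in the report.

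The sign of uncalled differences near 0 changed. By upper quartile these were Ezh1 with TSA in wild type (0.091), Suz12 in TKO under TSA (-0.0101) and the interaction of Mtf2 (-0.0425). By total counts these were the same genes (0.15, -0.0026 and -0.0299) and Jarid2 with TSA in TKO (0.0275). With the length offset they were Mtf2 with TSA in wild type (-0.016), with TSA in TKO (-0.022) and in the interaction (-0.0060). Without single libraries Ezh1 with TSA in wild type ranged from -0.19 to 0.0943, Mtf2 from -0.19 to 0.35 (TSA in wild type), -0.0155 to 0.19 (TSA in TKO), -0.31 to 0.25 (genotype in DMSO), -0.12 to 0.0914 (genotype under TSA) and -0.27 to 0.29 (interaction). Eed in the genotype comparison in DMSO ranged from -0.14 to 0.0535, and under TSA Suz12 ranged from -0.0558 to 0.13 and Phf1 from -0.16 to 0.0034. In the interaction Ezh2 ranged from -0.0853 to 0.0609 and Jarid2 from -0.0476 to 0.24. The cause of these changes was not tested.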
